A study of Mus musculus with 18 samples.

Results

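Matrix metalloproteases (Mmp genes), ADAMTS proteases (Adamts genes) and the tissue inhibitors of metalloproteases (Timp genes) were followed through cardiomyocytes and cardiac fibroblasts of mice that carry the Bag3-P209L transgene and of mice that do not. Members were all listed genes whose symbol is Mmp or Adamts followed by a number, or one of Timp1 to Timp4, which gave 45 of the 19094 protein-coding genes: 22 Mmp, 19 Adamts and 4 Timp genes. Bag3 encodes a co-chaperone of heart and skeletal muscle, and P209L names the amino acid change that the transgene carries. The first group was Bag3-P209L Tg+ (3 mice) and the second Bag3-WT (3 mice), all aged 16 months. From each heart, cardiomyocytes and fibroblasts were isolated and their messenger RNA was sequenced, which gave 12 cardiomyocyte libraries (rep1 and rep2 of each mouse) and 6 fibroblast libraries (1 per mouse). Which promoter drives the transgene is not given in the sources used.

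Matrix metalloproteases are zinc-dependent enzymes, secreted or anchored at the cell surface, that cut collagens, gelatin, elastin, laminin and many other matrix proteins. They are made as inactive proenzymes and switched on by removal of a propeptide, often by plasmin or by another metalloprotease. ADAMTS enzymes carry thrombospondin motifs that bind them to matrix, and they divide into proteases of large proteoglycans, proteases that trim procollagen, and others. TIMP proteins block the active site of these enzymes, and TIMP3 is the inhibitor best known for acting on ADAMTS proteases as well. In the heart, this balance shapes the interstitial collagen network around myocytes.

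Levels are given as CPM, the counts per 1000000 nuclear-encoded counts after TMM scaling (a correction for RNA composition), with rep1 and rep2 of a mouse summed. Summed nuclear counts per mouse ran from 2261653 to 7793062 in cardiomyocytes and from 11309883 to 15811137 in fibroblasts, so a count of 3 corresponded to 0.385 to 1.33 and 0.190 to 0.265 CPM before TMM scaling. The share of counts from the 13 mitochondrially encoded genes, which were left out, was 51.7% to 85.5% in cardiomyocytes and 16.7% to 74.2% in fibroblasts, with the highest fibroblast share in WT mouse 1. All 9 cardiomyocyte markers were higher in the cardiomyocyte libraries, with a summed level of 2433 to 5904 CPM against 970 to 2372 CPM in fibroblast libraries. Fibroblast markers did not separate the preparations: of 9, 3 were higher and 1 lower in cardiomyocytes. Their summed level was 9038 to 22700 CPM in cardiomyocyte and 4709 to 18170 CPM in fibroblast libraries. Both the 22700 and the 4709 CPM belonged to WT mouse 1. The cardiomyocyte libraries of Tg mouse 3 did not match the animal code of their label: the code has the letter F, as have Tg mouse 1 and WT mouse 1, yet they held 61.8 counts of the Y-linked gene Ddx3y and 172 of Eif2s3y, also Y-linked, against 0 counts of both in its fibroblast library. The cardiomyocyte libraries of Tg mouse 1 and WT mouse 1 held 0 counts of Ddx3y but 24 and 18.6 counts of Eif2s3y, and their fibroblast libraries held 0 counts of both. Some results in which Tg mouse 3 stood apart are therefore also given without it. Where no such value is given, a result may still depend on that mouse. Bag3 itself, which cannot be split into transgene and endogenous gene here, was at 165, 128 and 204 CPM in Tg+ cardiomyocytes and at 344, 125 and 119 CPM in Bag3-WT cardiomyocytes, and at 418, 596 and 230 CPM in Tg+ and 276, 483 and 403 CPM in Bag3-WT fibroblasts (mice 1, 2 and 3).

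The Mmp cluster of chromosome 9 is shown in sequence because its neighbouring genes share a promoter motif but differed in the libraries. In the RefSeq annotation of build GRCm38.p6, 10 Mmp genes lie side by side within 427 kb (chr9:7272514-7699585), in the order Mmp13, Mmp12, Mmp1b, Mmp3, Mmp1a, Mmp10, Mmp8, Mmp27, Mmp20 and Mmp7, and 9 of them are members (Mmp20 was not analysed here). The AP-1 heptamer TGAGTCA, or its reverse complement TGACTCA, stands within 250 bases before to 50 bases after the start of 7 of these 9 members (Mmp13, Mmp12, Mmp1b, Mmp3, Mmp1a, Mmp10 and Mmp7), and of 0 of the 22 other members with a RefSeq promoter. A gene was counted if any of its listed promoters held the heptamer. Mmp12 and Mmp7 each have a second listed promoter without it, which for Mmp12 is the one at the annotated start of the gene. Counted by promoter, 7 of the 34 listed for members hold the heptamer on either strand, against 5.2% of 32851 promoters of that length. AP-1 is the Fos and Jun transcription factor pair, and its site is a textbook element of collagenase and stromelysin promoters. The 250 bases before the start are printed for 4 members of the cluster, chosen among those that hold the heptamer, which is in capitals. Mmp8, also described below, has no heptamer in its listed promoter and is not printed. In the printed sequences the first base of the heptamer lies 35, 44, 46 and 63 bases before the start of Mmp13, Mmp12, Mmp3 and Mmp10, in that order. All 4 are on the plus strand of GRCm38.p6: Mmp13 at chr9:7272264-7272513, Mmp12 at chr9:7347124-7347373 (a start inside the annotated gene), Mmp3 at chr9:7445572-7445821 and Mmp10 at chr9:7502092-7502341.
Mmp13: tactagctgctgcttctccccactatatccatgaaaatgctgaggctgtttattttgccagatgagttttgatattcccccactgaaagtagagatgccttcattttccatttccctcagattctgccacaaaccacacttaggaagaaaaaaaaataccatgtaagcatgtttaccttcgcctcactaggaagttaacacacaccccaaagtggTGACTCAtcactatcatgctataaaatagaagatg
Mmp12: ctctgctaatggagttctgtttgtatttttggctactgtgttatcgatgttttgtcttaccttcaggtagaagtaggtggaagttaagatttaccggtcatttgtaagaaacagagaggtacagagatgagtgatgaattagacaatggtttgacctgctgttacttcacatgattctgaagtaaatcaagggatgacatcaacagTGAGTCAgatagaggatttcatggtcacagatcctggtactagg
Mmp3: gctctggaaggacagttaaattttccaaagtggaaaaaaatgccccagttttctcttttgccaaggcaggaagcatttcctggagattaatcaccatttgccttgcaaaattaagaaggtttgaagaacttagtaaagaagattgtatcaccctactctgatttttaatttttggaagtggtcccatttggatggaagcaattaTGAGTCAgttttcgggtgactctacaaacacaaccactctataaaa
Mmp10: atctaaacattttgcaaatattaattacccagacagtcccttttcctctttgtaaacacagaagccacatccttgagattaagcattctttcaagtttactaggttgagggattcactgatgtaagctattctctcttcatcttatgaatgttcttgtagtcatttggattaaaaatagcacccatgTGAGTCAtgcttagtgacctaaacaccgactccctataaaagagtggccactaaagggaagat

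Per kilobase of exon, which allows genes to be set beside each other, Timp2 had the highest mean level in both preparations, at 436 ± 287 CPM per kb in cardiomyocytes and 304 ± 68.9 CPM per kb in fibroblasts (SD, n = 6 mice each). In cardiomyocytes it was followed by Timp3 (108 ± 28.2 CPM per kb), the gelatinase gene Mmp2 (105 ± 34.7 CPM per kb), Mmp14 (35.1 ± 23.7 CPM per kb) and Adamts1 (33.6 ± 11.4 CPM per kb). Timp3 and Mmp2, and likewise Mmp14 and Adamts1, did not differ beyond their spread. In fibroblasts the order after Timp2 was Adamts4 (173 ± 75.6 CPM per kb), Adamts1 (147 ± 55.5 CPM per kb), Mmp2 (145 ± 52.1 CPM per kb) and Timp3 (96.1 ± 32.1 CPM per kb), and neighbours among these 4 differed by less than the larger of their SDs. Adamts4 thus stood second in fibroblasts but in place 19 of 44 in cardiomyocytes, at 2.44 ± 1.99 CPM per kb.

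Summed per family on the same scale, the 4 inhibitors gave 574 ± 310 CPM per kb in cardiomyocytes and 477 ± 80.8 CPM per kb in fibroblasts, and the Mmp genes 223 ± 58.2 and 361 ± 58.2 CPM per kb in these preparations. The Adamts genes gave 76.7 ± 13.7 CPM per kb in cardiomyocytes and 378 ± 132 CPM per kb in fibroblasts. Only the Adamts sums did not overlap, with 58.9 to 98.5 CPM per kb in cardiomyocyte and 146 to 522 CPM per kb in fibroblast preparations. At the low end, Mmp1a, Mmp1b and Mmp7 never exceeded 3 counts in any of the 18 libraries. Mmp21, Mmp24, Mmp27, Adamts13, Adamts16, Adamts17, Adamts18 and Adamts20 also stayed under the filter on low counts, with at most 20.0 counts in a library (Mmp27), which left 34 members for testing.

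**Figure D1:**
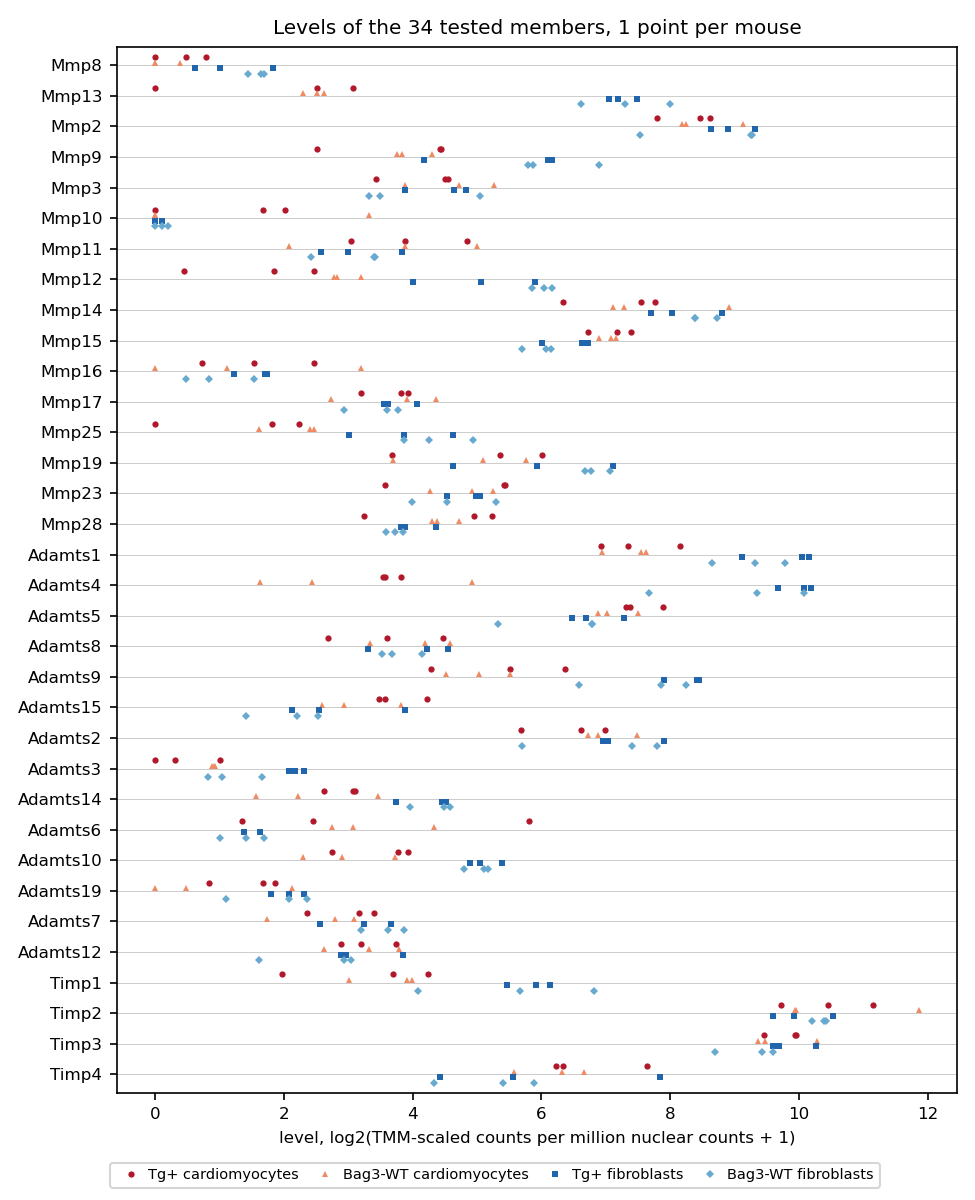
Levels of the 34 members that passed the filter on low counts, as log2(CPM + 1), with 1 point per mouse, cell type and genotype. Adamts4 and Mmp13 show the widest gaps between cardiomyocyte and fibroblast points, while Timp2, Timp3 and Mmp2 are high in both.

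The first comparison asked which members differ between cardiomyocytes and fibroblasts of the same 6 hearts, as labelled. The mouse block and the counts of mice given below rest on this pairing. It is uncertain for Tg mouse 3 because of the Y-linked counts given above. Of 34 members tested, 13 were lower and 6 were higher in cardiomyocytes at an edgeR adjusted p below 0.05, which is 38.2% and 17.6% of them, against 24.4% and 19.3% of all 14223 genes tested. In either direction 19 members (55.9%) passed, against 43.7% of all genes. The median log2 fold change was -0.45 over the members and -0.03 over all genes. By family, 7 of 16 Mmp genes were lower and 2 higher, 5 of 14 Adamts genes lower and 3 higher, and 1 of 4 Timp genes lower and 1 higher. Without Tg mouse 3, 12 members were lower and 7 higher. Without TMM scaling 12 members were lower and 10 higher, while the balance of all genes turned to 2250 lower and 4770 higher, against 3470 and 2742 with it. For 8 members every cardiomyocyte value lay below every fibroblast value (23.5%, against 15.2% of all genes), and for 0 members every one lay above (against 9.46% of all genes).

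In these bulk libraries, fewer cells of a type and less RNA per cell cannot be told apart. Macrophage markers moved the same way as the lower members: all 10 were lower in cardiomyocytes, with a summed level of 1046 to 3587 CPM against 5149 to 17070 CPM in fibroblasts, and none was at 0. Of 10 neutrophil markers 4 could be tested and 1, Csf3r, was lower; their sum was 3.99 to 124 CPM in cardiomyocytes, where Ly6g and Mpo were at 0, against 43.9 to 159 CPM in fibroblasts. Smooth muscle and pericyte markers moved the other way (7 of 8 higher, 1018 to 4654 CPM in cardiomyocytes against 403 to 1880 CPM in fibroblasts), as did mesothelial markers (6 of 7 higher and 1 lower, 38.5 to 1048 CPM against 96.0 to 292 CPM). Endothelial markers gave 0 higher and 2 lower of 8, with 1870 to 6715 CPM in cardiomyocytes against 3047 to 5822 CPM in fibroblasts. The part of these cells in the members' differences was not tested.

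**Figure D2:**
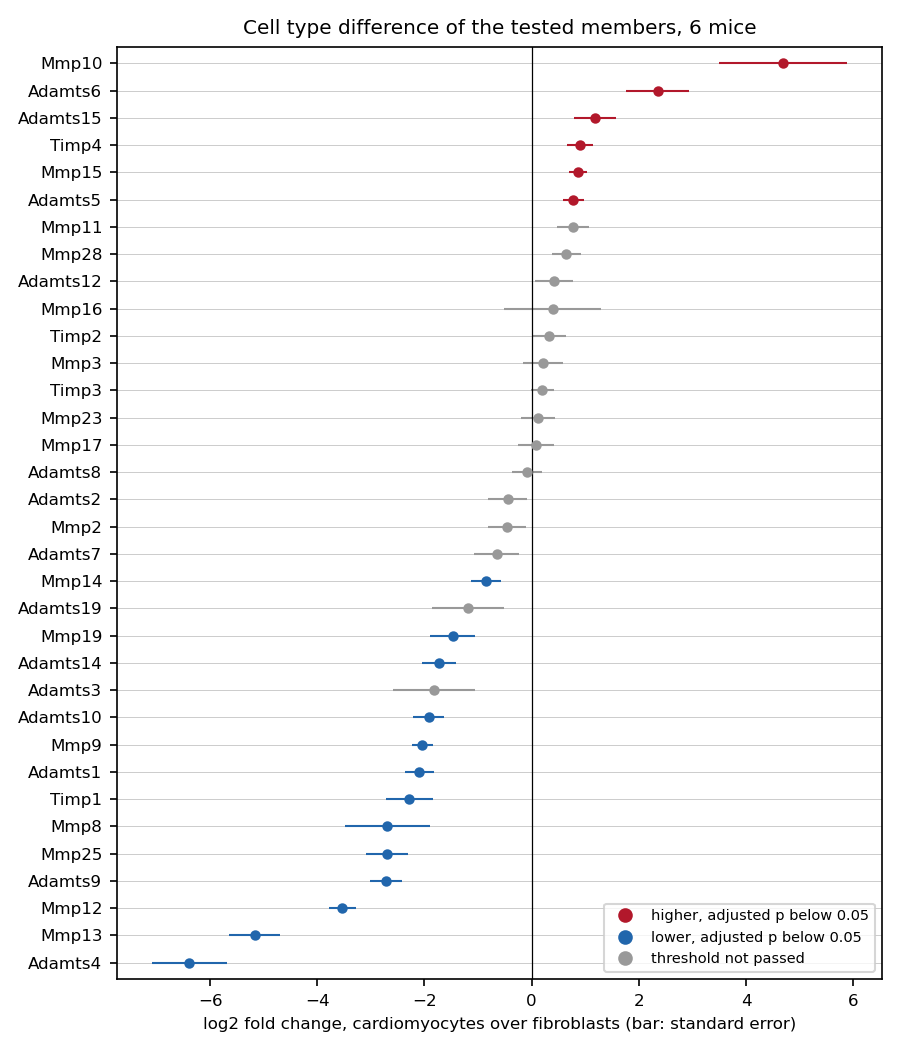
Log2 fold change of cardiomyocytes over fibroblasts for each tested member, with its standard error, from the edgeR fit over 6 mice. The 13 lower members reach -6.39 (Adamts4) and the 6 higher ones 4.69 (Mmp10, with counts in 3 of 6 mice).

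Both collagenase genes that could be tested were lower in cardiomyocytes. Mmp13, which encodes collagenase-3, an enzyme that cuts fibrillar collagen, was at 4.73, 7.42 and 0 CPM in Tg+ and 3.91, 5.17 and 4.70 CPM in Bag3-WT cardiomyocytes, against 146, 131 and 178 CPM in Tg+ and 255, 97.0 and 157 CPM in Bag3-WT fibroblasts (mice 1, 2 and 3). Its groups were far apart, and the 0 stood for 0 counts in Tg mouse 3, where a count of 3 would be 1.10 CPM before TMM scaling. This was a log2 fold change of -5.17 (SE 0.48, edgeR adjusted p = 1.85e-05), and -4.79 (SE 0.27) without that mouse. Mmp8, the neutrophil collagenase gene, was scarce in both, with 0 to 7 counts per mouse in cardiomyocytes and 6 to 35 in fibroblasts. In Tg mouse 3 its 0.538 CPM in fibroblasts lay below the 1.10 CPM that 3 counts would be in cardiomyocytes, where it had 0 counts, so no direction can be read there; in the other 5 mice the cardiomyocyte value was the lower one. The log2 fold change was -2.69 (SE 0.80, edgeR adjusted p = 0.0185), a call that was lost without WT mouse 2 (adjusted p = 0.0514).

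The gelatinases parted. Mmp9, a gelatinase carried by leukocytes among other cells, had a lowest, median and highest level of 4.72, 16.0 and 20.6 CPM in cardiomyocytes against 17.0, 62.6 and 118 CPM in fibroblasts. The ranges touched through the fibroblasts of Tg mouse 3, but each mouse was lower in its cardiomyocytes, and the log2 fold change was -2.04 (SE 0.20, edgeR adjusted p = 1.61e-05). Mmp2, the gelatinase known from mesenchymal cells, had 221, 328 and 560 CPM in cardiomyocytes against 185, 544 and 634 CPM in fibroblasts. Its ranges overlapped widely, and its log2 fold change of -0.46 (SE 0.35, edgeR adjusted p = 0.309) did not pass. Mmp2 too was lower in the cardiomyocytes of all mice but WT mouse 1, although in Tg mouse 1 by very little.

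Mmp12, the macrophage elastase gene, lies next to Mmp13 and was also lower. It was at 2.59, 4.51 and 0.363 CPM in Tg+ and 6.09, 5.84 and 8.20 CPM in Bag3-WT cardiomyocytes, against 32.5, 58.5 and 15.1 CPM in Tg+ and 56.6, 64.6 and 70.7 CPM in Bag3-WT fibroblasts. No cardiomyocyte value reached a fibroblast value. In the fit this came to a log2 fold change of -3.53 (SE 0.25, edgeR adjusted p = 2.11e-06), and within single mice it ran from -3.56 to -2.96 as a difference of log2(CPM + 1).

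The stromelysin neighbours Mmp3 and Mmp10, whose products cut proteoglycans and laminin and activate other metalloproteases, did not follow them. Mmp3 had a lowest, median and highest level of 9.80, 22.0 and 37.3 CPM in cardiomyocytes against 8.95, 18.9 and 31.9 CPM in fibroblasts, overlapping throughout (log2 fold change 0.21, SE 0.37, edgeR adjusted p = 0.668). Mmp10 had 29, 0 and 6 counts in Tg+ and 23, 0 and 0 counts in Bag3-WT cardiomyocytes, against 1, 0 and 0 counts in Tg+ and 2, 1 and 0 counts in Bag3-WT fibroblasts. It was thus seen in the cardiomyocytes of 3 mice and had 0 counts in those of the other 3, and the 6 counts of Tg mouse 3 all came from its rep1 library. It passed as higher (log2 fold change 4.69, SE 1.20, edgeR adjusted p = 0.0117), but the size of a fitted fold at such counts is no bound, and the call was lost without Tg mouse 1 (adjusted p = 0.0677) or WT mouse 1 (adjusted p = 0.078). With rep2 alone, or with mitochondrially encoded genes left in, Mmp10 fell below the filter and could not be tested. Mmp3 and Mmp10 are close relatives in sequence, and the sources used do not state how reads common to both were split. Mmp11, the stromelysin that is activated inside the cell, had a log2 fold change of 0.77 (SE 0.30, edgeR adjusted p = 0.0592).

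**Figure D3:**
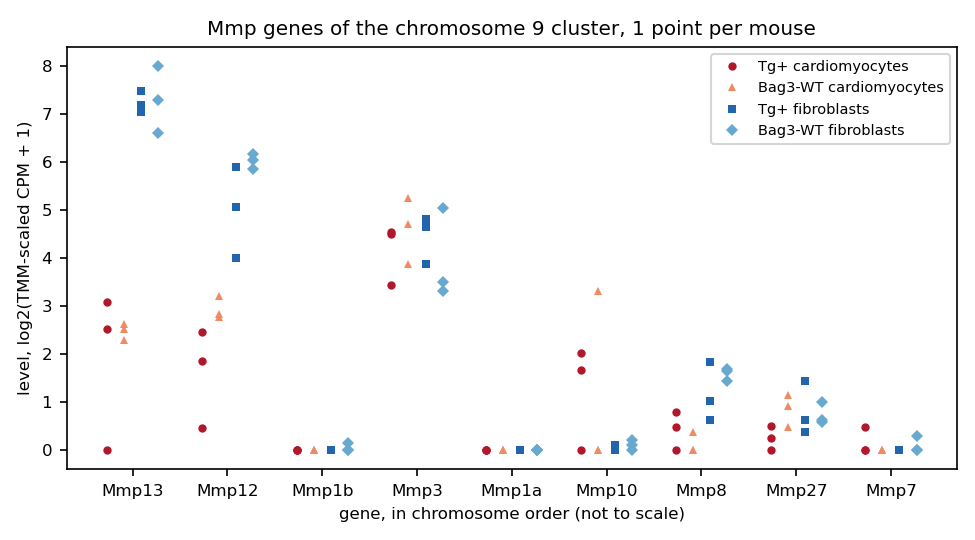
Levels of the 9 members of the chromosome 9 cluster, as log2(CPM + 1), in chromosome order and with 1 point per mouse. Mmp13 and Mmp12 points of cardiomyocytes lie below all fibroblast points, those of Mmp3 are mixed, and Mmp10 has points well above 0 in 3 cardiomyocyte preparations.

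Of 5 membrane-type Mmp genes tested, 2 were lower and 1 was higher. Mmp14 encodes MT1-MMP, the main activator of proMMP2, for which it uses TIMP2 as an adaptor. Its lowest, median and highest levels were 79.5, 170 and 482 CPM in cardiomyocytes against 206, 334 and 444 CPM in fibroblasts. All mice but WT mouse 1 had less in cardiomyocytes. That mouse had the highest summed fibroblast markers among cardiomyocyte preparations (22700 CPM) and the lowest among fibroblast preparations (4709 CPM). Their part in the Mmp14 values was not tested. The log2 fold change was -0.86 (SE 0.28, edgeR adjusted p = 0.0288). This call was lost without Tg mouse 2, Tg mouse 3, WT mouse 2 or WT mouse 3 (adjusted p = 0.0863, 0.0735, 0.0838 and 0.0905 in that order). Mmp25, a lipid-anchored enzyme known from leukocytes, had 0, 3.12 and 4.56 CPM in cardiomyocytes against 7.10, 15.9 and 29.7 CPM in fibroblasts, with no overlap (log2 fold change -2.70, SE 0.40, edgeR adjusted p = 0.000319). Mmp15, which encodes MT2-MMP, was the higher one: 104, 138 and 167 CPM in cardiomyocytes against 50.6, 68.3 and 105 CPM in fibroblasts. Every mouse had more in its cardiomyocytes, although the ranges met at their ends (log2 fold change 0.87, SE 0.17, edgeR adjusted p = 0.00202). Mmp16 and Mmp17 did not pass, with log2 fold changes of 0.39 and 0.08.

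Among the remaining Mmp genes, Mmp19, a secreted enzyme that cuts basement membrane proteins, was lower in 5 of 6 mice (log2 fold change -1.47, SE 0.42, edgeR adjusted p = 0.0161). It had 11.7, 36.6 and 63.3 CPM in cardiomyocytes against 23.6, 105 and 137 CPM in fibroblasts as lowest, median and highest levels. The exception was Tg mouse 3, and the call was lost without Tg mouse 1 (adjusted p = 0.0517) or WT mouse 2 (adjusted p = 0.054). Mmp19 shares 789 exonic bases with Tmem198b on the other strand, and the strand of counting is not given, so reads of the pair cannot be told apart. Mmp28, epilysin, and Mmp23 did not pass (log2 fold changes 0.65 and 0.12).

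Among the 6 tested Adamts genes whose products cut large proteoglycans such as aggrecan and versican, 3 were lower and 2 higher in cardiomyocytes. Adamts4, an aggrecanase gene at chr1:171250421-171260637, gave the widest gap of any member. It was at 13.2, 10.9 and 10.6 CPM in Tg+ and 29.3, 4.41 and 2.10 CPM in Bag3-WT cardiomyocytes, against 814, 1170 and 1074 CPM in Tg+ and 203, 1081 and 654 CPM in Bag3-WT fibroblasts. Even the lowest fibroblast value, that of WT mouse 1 with 74.2% mitochondrial counts, was far above the highest cardiomyocyte value, which came from the same mouse. Adamts4 had a log2 fold change of -6.39 (SE 0.70, 84.0-fold lower in cardiomyocytes, edgeR adjusted p = 7.92e-05).

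Adamts9, a versican protease, had 18.6, 38.2 and 81.3 CPM in cardiomyocytes against 94.7, 270 and 349 CPM in fibroblasts as lowest, median and highest (log2 fold change -2.72, SE 0.30, edgeR adjusted p = 4e-05). Adamts1, also a versican protease, had 121, 173 and 283 CPM in cardiomyocytes against 402, 761 and 1142 CPM in fibroblasts (log2 fold change -2.10, SE 0.27, edgeR adjusted p = 0.000117). For both, no cardiomyocyte value reached the fibroblast range. Adamts9 shares 1381 exonic bases with A730049H05Rik on the other strand.

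Adamts5, the other main aggrecanase gene, went the opposite way from Adamts4. It had 117, 162 and 235 CPM in cardiomyocytes against 38.9, 106 and 155 CPM in fibroblasts, and each of the 6 mice had more in its cardiomyocytes (log2 fold change 0.78, SE 0.20, edgeR adjusted p = 0.00862). Adamts15, a versican protease, was higher in 5 of 6 mice, at 5.00, 10.6 and 17.6 CPM in cardiomyocytes against 1.65, 4.19 and 13.7 CPM in fibroblasts (log2 fold change 1.19, SE 0.39, edgeR adjusted p = 0.0279). That call was lost without Tg mouse 1, Tg mouse 2, WT mouse 1 or WT mouse 2 (adjusted p = 0.0875, 0.105, 0.0725 and 0.0777 in that order), while without Tg mouse 3, the exception, the log2 fold change was 1.55 (SE 0.33, adjusted p = 0.00321). Adamts8 did not pass (log2 fold change -0.09, SE 0.28).

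The procollagen N-proteinases remove the amino-terminal propeptide so that fibrils can form. Adamts14 had 1.95, 6.29 and 10.0 CPM in cardiomyocytes against 12.4, 21.2 and 23.0 CPM in fibroblasts, without overlap (log2 fold change -1.73, SE 0.31, edgeR adjusted p = 0.00124). Adamts2, the main enzyme of the group in skin, had 50.5, 111 and 178 CPM in cardiomyocytes against 50.9, 149 and 240 CPM in fibroblasts and did not pass (log2 fold change -0.45, SE 0.37). Adamts3 was scarce, at 0 to 1.02 CPM in cardiomyocytes against 0.767 to 3.95 CPM in fibroblasts, and did not pass either (log2 fold change -1.82, SE 0.76, edgeR adjusted p = 0.0736).

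Adamts10 and Adamts6 are sister genes, and ADAMTS10 is known in humans for its ties to fibrillin microfibrils. Adamts10 was lower in cardiomyocytes in all mice, with 3.89, 9.34 and 14.1 CPM against 26.8, 32.6 and 41.0 CPM in fibroblasts (log2 fold change -1.92, SE 0.29, edgeR adjusted p = 0.000345). Adamts6 was at 1.55, 4.46 and 55.0 CPM in Tg+ and 5.74, 7.37 and 19.2 CPM in Bag3-WT cardiomyocytes, against 1.61, 1.60 and 2.08 CPM in Tg+ and 1.00, 2.23 and 1.67 CPM in Bag3-WT fibroblasts. The fibroblast values were close together, while cardiomyocyte values spread widely, with Tg mouse 3 on top and Tg mouse 1 at the fibroblast level. Over all mice the log2 fold change was 2.35 (SE 0.58, edgeR adjusted p = 0.0072), and 1.90 (SE 0.54, adjusted p = 0.0146) without Tg mouse 3. The COMP-cleaving members Adamts7 and Adamts12 did not pass (log2 fold changes -0.65 and 0.42).

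Of the inhibitors, Timp1 was lower, Timp4 higher and Timp2 and Timp3 neither, in the comparison of cardiomyocytes with fibroblasts. Timp1, the inhibitor known for its induction in injured tissue, was at 12.0, 17.8 and 2.90 CPM in Tg+ and 14.9, 14.0 and 7.05 CPM in Bag3-WT cardiomyocytes, against 43.1, 68.8 and 59.6 CPM in Tg+ and 16.0, 112 and 49.8 CPM in Bag3-WT fibroblasts. Each mouse was lower in cardiomyocytes, but in WT mouse 1 by very little, and the ranges touched through its fibroblasts. That mouse also held both fibroblast marker extremes given above, whose part in the Timp1 values was not tested. The log2 fold change was -2.28 (SE 0.43, edgeR adjusted p = 0.00171), and -1.93 (SE 0.38) without Tg mouse 3.

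Timp4, the inhibitor known for its high level in heart muscle, was at 79.5, 74.0 and 199 CPM in Tg+ and 46.5, 78.7 and 99.7 CPM in Bag3-WT cardiomyocytes, against 46.1, 20.5 and 228 CPM in Tg+ and 19.2, 41.4 and 58.4 CPM in Bag3-WT fibroblasts. All mice except Tg mouse 3 had more in cardiomyocytes, and this mouse had the highest level of both preparations. It also had the highest summed smooth muscle and pericyte markers of both, with 4654 CPM in cardiomyocytes, where the other mice had 1018 to 4062 CPM, and 1880 CPM in fibroblasts, where they had 403 to 617 CPM. The part of these cells in the Timp4 values was not tested. The log2 fold change was 0.90 (SE 0.24, edgeR adjusted p = 0.0117), and 1.16 (SE 0.20, adjusted p = 0.000784) without Tg mouse 3. Without the mouse as a block it was 0.58 (SE 0.50) and did not pass (adjusted p = 0.359). Timp4 shares 90 exonic bases with Syn2, and Timp3 1733 with Syn3, both on the other strand.

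Timp2, which binds proMMP2 as well as inhibiting it, was at 846, 1400 and 2271 CPM in Tg+ and 990, 976 and 3719 CPM in Bag3-WT cardiomyocytes, against 974, 1481 and 769 CPM in Tg+ and 1178, 1363 and 1340 CPM in Bag3-WT fibroblasts. Tg mouse 3 and WT mouse 3 stood above the other cardiomyocyte values, and their rep1 and rep2 libraries gave the same picture (2285 and 2269 CPM in Tg mouse 3, 3734 and 3717 CPM in WT mouse 3). These are also the cardiomyocyte preparations with the highest summed smooth muscle and pericyte markers, at 4654 and 4062 CPM, against 1018 to 2798 CPM in the other 4; their part in the Timp2 values was not tested either. The log2 fold change of Timp2 was 0.32 (SE 0.32, edgeR adjusted p = 0.434). Timp3, the matrix-bound inhibitor, had 658, 847 and 1239 CPM in cardiomyocytes against 414, 775 and 1223 CPM in fibroblasts (log2 fold change 0.20, SE 0.22, edgeR adjusted p = 0.48). Without TMM scaling, where the median of all genes was 0.39, Timp2 and Timp3 passed as higher (log2 fold changes 0.74 and 0.62, edgeR adjusted p = 0.0479 and 0.0462).

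**Figure D4:**
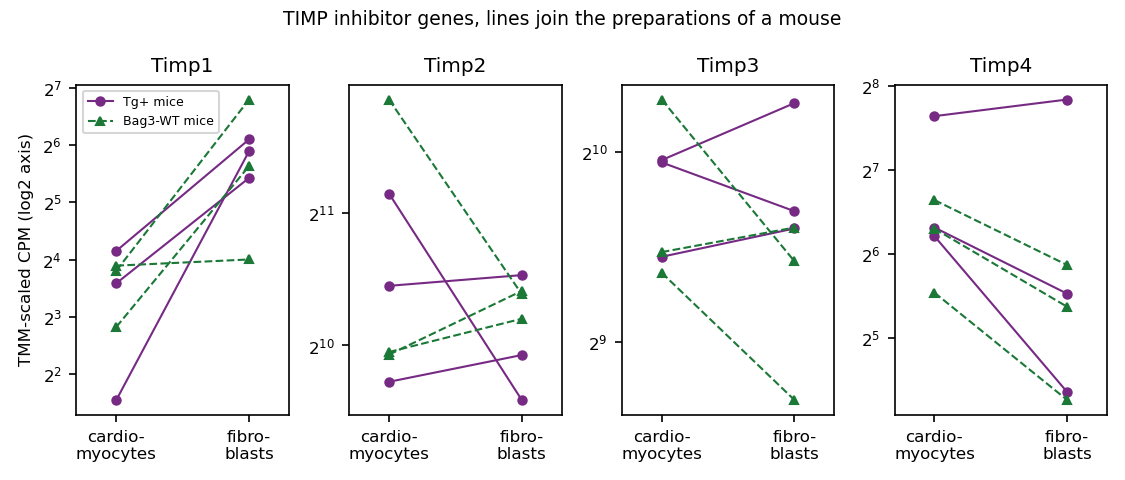
CPM of the 4 inhibitor genes on a log2 axis, with a line joining the cardiomyocytes and fibroblasts of each mouse. The Timp1 lines all run upwards to fibroblasts, the Timp4 lines of 5 mice run downwards, and the Timp2 and Timp3 lines cross.

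The second question was whether Tg+ differs from Bag3-WT within cardiomyocytes. Of 29 members tested, edgeR called 0 higher and 0 lower, as of all 12114 genes (0%). DESeq2 called 0 members, and of all genes 2 higher and 1 lower. Without Tg mouse 3 edgeR again called 0. In simulated counts this test called 0% of genes changed by a log2 fold of 1, and 19.7% of those changed by 2. The 0 calls therefore do not show that no member differs. Mmp8, Mmp10, Mmp16, Adamts3 and Adamts19 were too low in cardiomyocytes to be tested. At an unadjusted p below 0.05 edgeR gave 0 members, against 0.718% of all genes. The median log2 fold change was 0.03 over the members and 0.01 over all genes. Mmp12 had the lowest p, and as given above its 3 Tg+ values lay below its 3 Bag3-WT values. It was the one member without overlap (1 of 29, 3.45%, lower against 2.48% of all genes lower; 0 members against 2.50% of genes higher).

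For Mmp12 the log2 fold change in cardiomyocytes was -1.41 (SE 0.82, edgeR adjusted p = 1), and -0.96 (SE 0.66) without Tg mouse 3, whose libraries held 1 count. The exact permutation test gave p = 0.1, the smallest that 3 against 3 mice allow. In fibroblasts Mmp12 had a log2 fold change of -0.81 (SE 0.41, edgeR adjusted p = 0.782). Beside it, the summed macrophage markers were 1046 to 3352 CPM in Tg+ against 2249 to 3587 CPM in Bag3-WT cardiomyocytes, and 5149 to 12400 CPM in Tg+ against 13680 to 17070 CPM in Bag3-WT fibroblasts. Their part in the Mmp12 values was not tested.

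Next by p in cardiomyocytes were Adamts2 and Timp4. Adamts2 was at 126, 96.9 and 50.5 CPM in Tg+ against 178, 117 and 105 CPM in Bag3-WT cardiomyocytes, which overlapped (log2 fold change -0.57, SE 0.41, edgeR adjusted p = 1). The log2 fold change of Timp4 was 0.64 (SE 0.48), but 0.00 (SE 0.35) without Tg mouse 3. Those of Timp1, Timp2 and Timp3 were -0.16, -0.32 and 0.03 (SE 0.66, 0.63 and 0.39), and none of the 4 inhibitors passed (edgeR adjusted p = 1 for each). In Timp2 the direction rested on WT mouse 3, without which the log2 fold change was 0.58 (SE 0.55).

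The third question was the same for fibroblasts. Of 33 members tested, edgeR called 0 higher and 0 lower, as of all 13858 genes (0%). DESeq2 called 0 members, and of all genes 1 higher and 5 lower. Without Tg mouse 3 edgeR again called 0. In simulated counts the fibroblast test called 15.4% of genes changed by a log2 fold of 1, and 76.9% of those changed by 2. Here too the 0 calls do not show that no member differs. Mmp10 was too low to be tested. At an unadjusted p below 0.05 edgeR gave 1 member (3.03%), against 5.04% of all genes. The median log2 fold change was 0.23 over the members and 0.02 over all genes. The 1 member was Adamts3, also the one without overlap (1 of 33 higher, 3.03%, against 4.06% of all genes; 0 lower against 9.02%).

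Adamts3 was at 3.50, 3.23 and 3.95 CPM (48.0, 38.0 and 44.0 counts) in Tg+ against 1.06, 2.15 and 0.767 CPM (14.0, 28.0 and 7.60 counts) in Bag3-WT fibroblasts. The Tg+ values were close together and all above the Bag3-WT values. The log2 fold change was 1.45 (SE 0.44, edgeR p = 0.0117, adjusted p = 0.782), and an exact permutation test gave p = 0.1, the smallest possible. Mmp15 was at 97.8, 63.1 and 105 CPM in Tg+ against 50.6, 70.2 and 66.4 CPM in Bag3-WT fibroblasts (log2 fold change 0.57, SE 0.25, edgeR adjusted p = 0.782), with Tg mouse 2 inside the Bag3-WT range. Timp3 was at 824, 774 and 1223 CPM in Tg+ against 414, 777 and 686 CPM in Bag3-WT fibroblasts (log2 fold change 0.65, SE 0.32, edgeR adjusted p = 0.782), again with Tg mouse 2 inside that range.

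The other inhibitors did not pass in fibroblasts either. Timp4 had a log2 fold change of 1.39 (SE 0.84, edgeR adjusted p = 0.782), which rested on Tg mouse 3, since without it the value was -0.20 (SE 0.54). Timp1 stood at -0.0027 (SE 0.59) and Timp2 at -0.21 (SE 0.28).

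Whether the cell type difference itself changed with genotype was tested as an interaction, the difference in Tg+ mice minus that in Bag3-WT mice. Of 34 members edgeR called 0, as of all 14223 genes (0%), with 0 members at an unadjusted p below 0.05 against 0.97% of all genes. DESeq2 called 0 members, and of all genes 1 higher and 0 lower. The lowest p values belonged to Adamts3 (log2 difference -2.62, SE 1.44), Mmp9 (0.52, SE 0.38) and Mmp3 (-0.97, SE 0.72), each at an edgeR adjusted p of 1. For Timp1, Timp2, Timp3 and Timp4 the log2 differences were -0.51, 0.18, -0.53 and -0.18 (SE 0.89, 0.68, 0.44 and 0.52). In simulated counts the interaction test called 0% of genes with a log2 difference of 1, and 15.4% of those with 2. Its 0 calls do not show that no member differs.

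**Figure D5:**
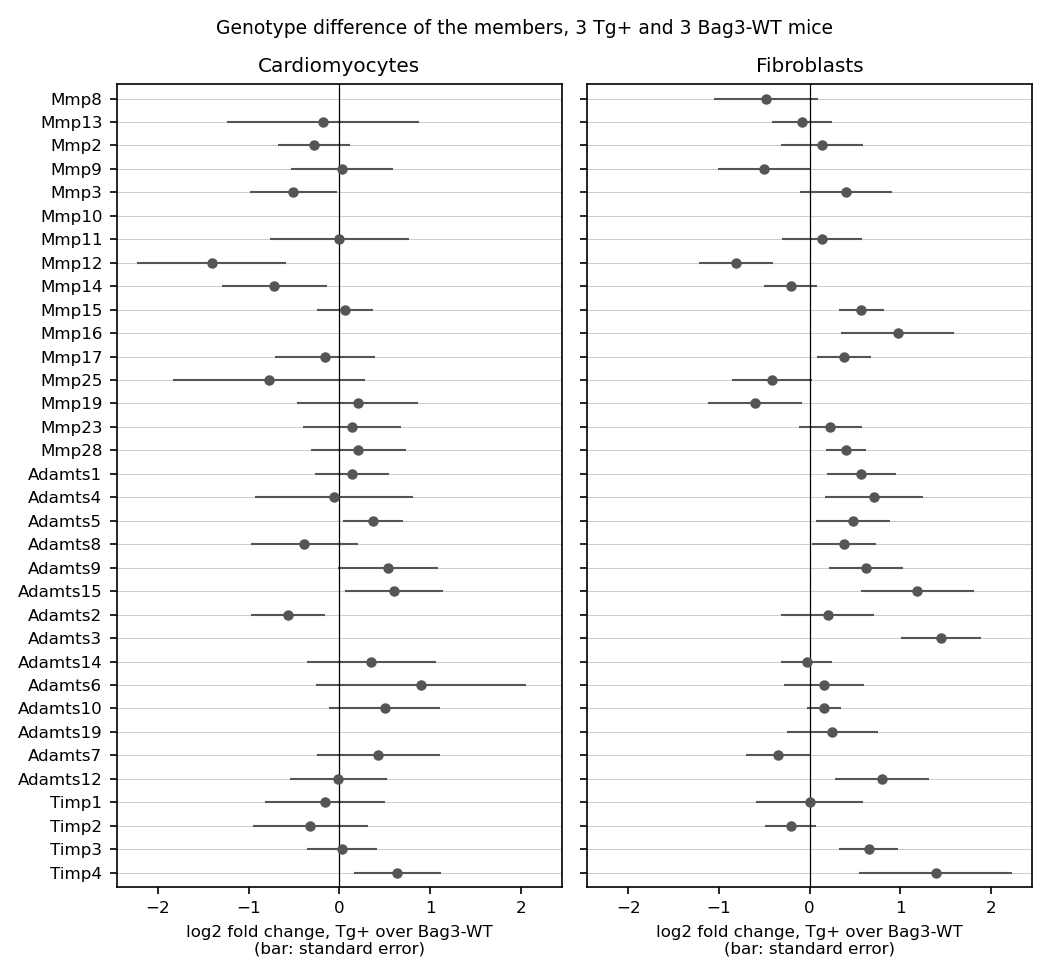
Log2 fold change of Tg+ over Bag3-WT for each member, with its standard error, in cardiomyocytes (29 tested) and fibroblasts (33 tested). None passed the adjusted threshold; Mmp12 in cardiomyocytes is at -1.41 and Adamts3 in fibroblasts at 1.45.

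Genes that act with these enzymes were read from lists that had been written with earlier results known, in the comparison of cardiomyocytes with fibroblasts. Their counts stand against 24.4% lower and 19.3% higher among all genes tested. Of 8 tested genes of the plasminogen system, which activates proenzymes, 5 were lower and 0 higher (median log2 fold change -2.96). Its lowest p values belonged to Plaur, the urokinase receptor, at -5.06 (SE 0.28), and Plau, urokinase, at -4.19 (SE 0.36). Of 10 genes of activation, inhibition and clearance, 3 were higher and 2 lower (median 0.40), which is near the shares of all genes; among them were Tfpi2, a serine protease inhibitor, at -2.86 (SE 0.33) and the proteoglycan gene Spock1 at 3.86 (SE 0.69). Of 8 membrane ADAM sheddases, relatives of the ADAMTS enzymes, 5 were lower and 1 higher (median -0.87), led by Adam8 at -3.94 (SE 0.29) and Adam17, the tumour necrosis factor convertase, at -1.58 (SE 0.20).

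The 7 ADAMTS-like genes, whose products lack a protease domain, gave 5 lower and 1 higher (median -0.85), with Adamtsl4 at -0.92 (SE 0.21) and Papln at -1.15 (SE 0.28). Of 5 matrix-degrading cathepsins 4 were lower and 1 higher (median -0.95), with Ctsb at -2.21 (SE 0.22) and Ctss at -2.18 (SE 0.23). Macrophages are rich in both cathepsins, and the macrophage marker sums given above were also lower in cardiomyocytes. The part of these cells in the cathepsin values was not tested. Among 8 tested proteoglycan substrates, by contrast, 0 were lower and 1 was higher (median -0.30): Fmod, fibromodulin, at 1.66 (SE 0.43), while Hspg2, perlecan, at -0.40 (SE 0.21) did not pass. In the genotype comparisons and the interaction edgeR called 0 genes of these lists.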

How the data were processed

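RNA of 18 libraries was analysed. The deposited table held expected counts per gene, of which 44.6% were not whole numbers (tolerance 1e-06); all 18 columns matched a sample label. Build GRCm38.p6 and the tools R 3.4.4, DESeq2 1.18.1 and kallisto 0.44.0 appear in the submitters' processing notes, without roles; no source used states the annotation or the strand of counting. Both repeats of each cardiomyocyte sample were summed, values were rounded, and the 13 mitochondrially encoded genes were removed, which gave 12 columns. edgeR 4.0.16 (filterByExpr, TMM, robust glmQLFit, glmQLFTest, 2-sided, Benjamini-Hochberg over all genes tested) was run with the mouse as block for the comparison of cell types and without covariates for genotype. Genes were called at an adjusted p below 0.05. The standard error (SE) of an edgeR fit was derived, as the absolute log2 fold change divided by the square root of the test's F statistic. DESeq2 1.42.0, limma 3.58.1, other scaling, no filter, rep2 alone and leaving out each mouse were alternatives. The code was tested on simulated counts with known changes, drawn from the observed means, library sizes and fitted dispersions.

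Lengths came from GENCODE M21 and promoters from RefSeq, both of GRCm38; 44 members had a length. Named were the TIMPs, every member that passed, the 3 lowest p values of each genotype test and interaction, and up to 2 genes per list; Mmp2, Mmp3 and other members that missed the threshold were added after their values were seen. Members, lists and alternatives were chosen with earlier results of these data known. The repeat number was not used to pair mice. Across genotypes, same-numbered libraries deviated from their group means with a mean correlation of 0.0106 (18 pairs, lowest -0.466, highest 0.404). Within a mouse it was 0.557 (6 pairs). An average over all pairs cannot show whether particular mice were paired. No source used states whether the repeats were separate preparations. Floors of 3 counts cover counting error only.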

Additional observations from a re-analysis of the deposited data

Results flagged for a closer look

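Adamts14, a procollagen N-proteinase gene, had 1 mouse apart from the others in the comparison of cardiomyocytes with fibroblasts. In WT mouse 1 the difference of log2(CPM + 1) was -2.92, whereas the other 5 mice lay between -1.74 and -1.12. The gap was 0.659 of the whole range, above Dixon's critical value for 6 values, which chance exceeds in about 1 of 20 such groups. All 34 tested members were screened and 1 exceeded it, which is no more than chance would give. The cardiomyocytes of that mouse held 5 counts of Adamts14, at 1.95 CPM, against 21.4 CPM in its fibroblasts, and its fibroblast library had 74.2% mitochondrial counts.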

How the results depend on the processing

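Without TMM scaling 10 members rather than 6 were higher in cardiomyocytes than in fibroblasts. All genes were then split into 4770 higher and 2250 lower, against 2742 and 3470 with it. Their median log2 fold change was 0.39 without the scaling and -0.03 with it. Nothing but the scaling differed between these fits. Leaving out each mouse gave 4 to 7 members higher and 10 to 15 lower. Of the 19 called members, 13 kept their call in all 12 alternatives; the others are Mmp8, Mmp10, Mmp14, Mmp19, Adamts15 and Timp4. Mmp10 could be tested in 10 of them. Mmp14 was also lost without TMM (-0.44) and without the mouse block (-0.70), and Adamts15 with rep2 alone (1.03). Over the alternatives the adjusted p ran from 0.00844 to 0.0514 (Mmp8), 0.00165 to 0.078 (Mmp10), 0.0043 to 0.221 (Mmp14), 0.000501 to 0.054 (Mmp19), 0.00321 to 0.105 (Adamts15), 0.000784 to 0.359 (Timp4), 0.0479 to 0.866 (Timp2) and 0.0462 to 0.864 (Timp3). Genotype and interaction calls of members were 0 in every alternative, including limma voom on the 12 cardiomyocyte libraries with a replicate block for the mouse (26 members tested, 0 called; Mmp12 at -1.56, SE 0.67). Over 471 single-member alternatives, 433 kept direction and side of the threshold, 17 lost the call, 2 gained one and 19 changed sign, all of them uncalled inhibitor values. For Timp1 in fibroblasts, Tg+ minus Bag3-WT was 0.00548 with DESeq2, 0.0452 without TMM and 0.768 with the animal letter as a covariate; the cause was not tested. Leaving out each mouse gave, for Tg+ minus Bag3-WT in cardiomyocytes, -0.644 to 0.268 (Timp1), -0.772 to 0.579 (Timp2) and -0.126 to 0.344 (Timp3). In fibroblasts it gave -0.459 to 0.86 (Timp1) and -0.203 to 1.87 (Timp4). For the interaction it gave -1.1 to 0.39 (Timp1), -0.474 to 0.783 (Timp2) and -0.687 to 0.226 (Timp4). Depth limits members such as Mmp8, Mmp10 and Adamts3, with few counts in cardiomyocytes.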

Other observations

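Adamts1 and Adamts5, both proteoglycan proteases, are neighbours on chromosome 16 (chr16:85793827-85803113 and chr16:85856173-85901828 in GENCODE M21 on GRCm38, both on the minus strand). They differed in opposite directions between cardiomyocytes and fibroblasts, with edgeR log2 fold changes of -2.10 (SE 0.27) and 0.78 (SE 0.20), lower in 6 of 6 and higher in 6 of 6 mice. Adamts15 and Adamts8, side by side on chromosome 9, stood at 1.19 (SE 0.39) and -0.09 (SE 0.28). These pairs were picked after their values were seen, and the difference within a pair was not tested.

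Of the members below the filter, Adamts20 had 19.4 of its 28 cardiomyocyte counts in Tg mouse 3, the mouse that also had the highest Adamts6, Adamts9 and Timp4 levels among cardiomyocyte preparations. Mmp21 and Adamts13 had 0 counts in all cardiomyocyte libraries, against 13 and 11 counts in fibroblasts. A count of 3 over the summed cardiomyocyte depth would be 0.113 CPM after TMM scaling.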
